A study of Drosophila melanogaster with 12 samples.

Results

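The genes described here are the well-expressed long non-coding RNA (lncRNA) genes of transplanted fly tumours, of mutant cells that had passed through metamorphosis, and of transplanted wild-type discs. They were chosen by their measured level. A gene was a member if its FlyBase symbol opens with the lncRNA prefix, apart from roX1, roX2 and let7C, and if its deposited value reached 2.4 on the log2 CPM scale (CPM, read counts scaled by library size, here a CPM of about 5.28) in at least 2 of the 12 libraries. Of 1794 such lncRNA genes among the 17521 genes measured, 90 were members and 1704 stayed below the level, 787 of these with at least 1 read. Symbols are given below without the lncRNA prefix.

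The ph505 allele is a loss of both ph-p and ph-d. These adjacent genes encode Polyhomeotic, a subunit of Polycomb repressive complex 1. In larval eye-antennal discs, ey-flp produced GFP-marked ph505 clones by MARCM. The tumours had been kept by weekly transplantation in the abdomen of adult wild-type hosts and were sampled at 4, 8 and 14 weeks, with 2 samples at each age. The 3 samples of metamorphed ph505 cells came from adult flies, where ey-flp is also active in leg and genital discs, so that marked cells arise from several tissues. The 3 control samples were late larval eye discs of wild-type flies, left in an adult abdomen for 1 day. Control discs had neither the allele nor the weeks of culture, and wild-type cells from after metamorphosis are absent from the design. Genotype, age and tissue therefore cannot be told apart, and sex differed in part, as given below. The metamorphed libraries had an instrument of their own, and its effect and that of the group cannot be told apart either.

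lncRNAs are transcripts with no long open reading frame. In flies some act as RNA, such as the heat shock omega transcript that holds RNA-binding proteins in nuclear speckles, and others serve as precursors from which microRNAs or small nucleolar RNAs are cut. Still others run through regulatory DNA, as in the bithorax complex, where transcription crosses the elements that Polycomb group proteins keep silent. The libraries were primed on poly(A) tails, so host transcripts were measured and mature microRNAs were not. The library kit does not mark strand, so reads from a lncRNA and from a gene on the other strand of the same bases cannot be told apart.

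Libraries held 2072498 to 81447816 reads on genes, and a count of 3 reads, taken as the detection floor, stood between 0.042 and 1.18 CPM. Of the targeted genes, ph-p lay at 206 to 223 CPM in metamorphed cells, 73.5 to 164 CPM in tumours and 53.3 to 84.4 CPM in control discs. The other, ph-d, lay at 90.2 to 142 CPM in metamorphed cells, 43.9 to 132 CPM in tumours and 58.5 to 81.5 CPM in control discs. Since the position of the lesion in the allele is not known here, these levels do not check the labels. In roX1, a male-specific RNA that is not a member, 2 control libraries stood apart from all others. Metamorphed cells had up to 2.93 CPM and tumours 0.364 to 8.26 CPM, against 1174, 3176 and 1.67 CPM in control discs. The labels do not give the sex of the samples. The paper's genotype for the marked ph505 clones pairs 2 X chromosomes, so these cells are female, while the 2 control libraries with high roX1 held male tissue. Between these control libraries and the mutant groups, sex and genotype cannot be told apart. The part of sex in differences from control discs, also for the 14 members on the X chromosome, was not tested. Markers of the labelled tissue summed to 77.8 to 140 CPM over 8 eye disc genes in metamorphed cells and to 37.2 to 84.7 CPM in tumours, against 1121 to 1334 CPM in control discs. Metamorphed cells also held markers of other tissues. The 6 photoreceptor genes summed to 301 to 1759 CPM in metamorphed cells, up to 1.74 CPM in tumours and up to 1.61 CPM in control discs, with 4 of the 6 without a read in tumours and 3 without one in control discs. The 4 fat body genes summed to 980 to 1370 CPM in metamorphed cells, up to 2.17 CPM in tumours and up to 60.4 CPM in control discs. The 6 haemocyte genes summed to 62.4 to 158 CPM in metamorphed cells, up to 9.52 CPM in tumours and up to 26.3 CPM in control discs, with each of the 6 detected in every group. Of the ovary list, the yolk protein gene Yp2, which fat body also expresses, had 601 to 5433 CPM in metamorphed cells, 0.0808 to 10.6 CPM in tumours and 91.3 to 770.0 CPM in control discs, while osk had no read in metamorphed cells, up to 1.56 CPM in tumours and up to 531 CPM in control discs. The 4 muscle genes summed to 75.8 to 800 CPM in metamorphed cells, 148 to 1047 CPM in tumours and 8.90 to 31.0 CPM in control discs. Against control discs all 4 were higher in metamorphed cells (21.6% of all genes tested). Mlc2 alone was higher in tumours (14.4%), with 32.9 to 416 CPM in metamorphed cells, 148 to 1036 CPM in tumours and 6.94 to 26.3 CPM in control discs. The 4 neuron genes summed to 55.8 to 100.3 CPM in metamorphed cells, 33.2 to 72.4 CPM in tumours and 203 to 401 CPM in control discs, and the 2 glia genes to 64.9 to 109 CPM in metamorphed cells, 0.223 to 16.8 CPM in tumours and 67.0 to 82.9 CPM in control discs. The part of these cell types in the results on metamorphed cells and tumours was not tested. In bulk RNA, fewer cells of a type and less RNA per cell cannot be told apart.

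Positions are from the Ensembl annotation of BDGP6.54, the dm6 assembly. The 90 members lay on every major chromosome, with 24 on 3R, 23 on 3L, 17 on 2R, 14 on X, 9 on 2L and 3 on chromosome 4. In all, 49 overlapped no protein-coding gene, 27 lay across one on the opposite strand and 14 lay within or across one on the same strand. Exonic length ran from 214 to 21710 bases with a median of 1099 bases. Of the members, 60 shared no exonic base with another gene, and 4 shared over 50% of theirs: CR42491 with RpL22 (50.5%), CR43958 with Tdg (55.3%), iab8 with MSAmiP (55.4%) and CR44133 with srp (81.4%). The values of these 4 are uncertain, since the way reads on shared bases were assigned is not given in the sources used here.

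Most members were expressed at low levels. The mean over 12 libraries ran from 1.26 to 12592 CPM with a median of 6.74 CPM, and 7 members were over 100 CPM while 56 were under 10 CPM. A read was found in every library for 48 members, and 19 members were past the level in all 12. No read was found in any tumour library for 5 members, in any metamorphed library for 9 and in any control library for 2. By condition, 29 members passed the level in at least 1 library each of tumours, metamorphed cells and control discs, 23 in tumours alone, 9 in metamorphed cells alone and 6 in control discs alone. Tumours supplied 6 of the 12 libraries and each other condition 3, so tumours had more chances to carry a gene past the level. The 38 members of a single condition entered through the condition in which they were high, so that a difference is built into their choice. The same holds for a member that passed in 2 of the conditions when it is set against the third, where no library passed. Log2 changes of both kinds are given below as descriptions with no p-value, as are those of CR32111 and marge, which passed in 3 control libraries and in only 1 other. A p-value is printed only where libraries of both groups compared had passed the level.

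The members together took 0.914 to 1.21% of the reads in metamorphed cells, 1.49 to 4.11% in tumours and 1.97 to 2.2% in control discs. A single short gene, CR40469, carried most of this in tumours. It took 0.357 to 0.682% of the reads in metamorphed cells, 0.849 to 3.84% in tumours and 0.381 to 0.8% in control discs. The other 89 members took 0.564% ± 0.0858 in metamorphed cells (SD, n = 3), 0.528% ± 0.169 in tumours (SD, n = 6) and 1.5% ± 0.0979 in control discs (SD, n = 3). The share on these 89 members was lower in every tumour and metamorphed library than in any control library. Most of the share in control discs fell on Hsromega, CR42862, noe and CR33938, whose values are given below, and CR33938 entered through control discs alone. The lower share therefore does not describe the members as a set. The median member of a library stood at 3.22 to 5.12 CPM in metamorphed cells, 4.41 to 9.28 CPM in tumours and 4.46 to 5.62 CPM in control discs.

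**Figure D1:**
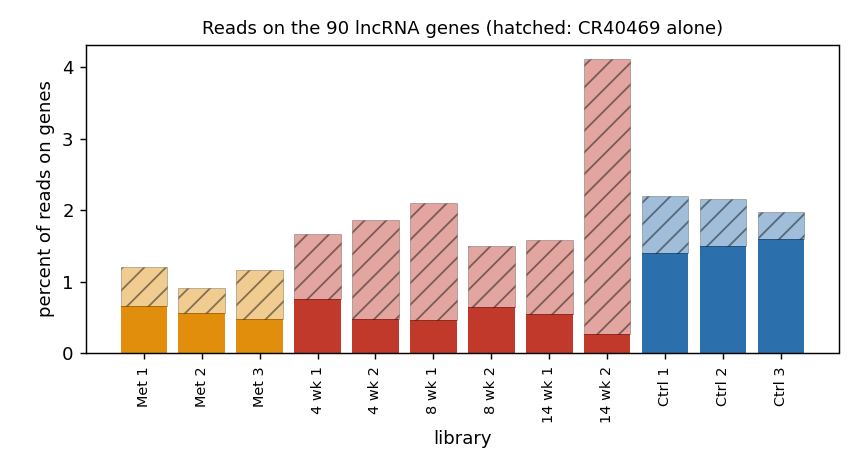
Percent of the reads on genes that fell on the members (y axis), by library (x axis), with the hatched part of each bar for CR40469 and the plain part for the other 89 members. The plain part spans 0.482 to 0.653% in metamorphed cells and 0.270 to 0.763% in tumours, below the 1.40 to 1.59% of control discs.

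CR40469 had the highest level of all members, also per length. It is 214 bases long and lies near the tip of the X chromosome (chrX:122493-122706, plus strand) directly after an annotated copy of HeT-A, the telomeric retrotransposon of flies, with another HeT-A fragment starting at 122739. Its nearest protein-coding gene is CG17636. The level was 6547, 4071 and 8043 CPM in metamorphed cells, 7390, 12069 and 62735 CPM in tumours (lowest, median and highest) and 6498, 5315 and 3174 CPM in control discs. The highest value belonged to the second 14-week tumour, and the other tumours reached 15063 CPM. On log2(CPM + 1), the scale of every log2 change below, the tumours differed from control discs by 1.56 ± 0.58 (SE), with a limma adjusted p of 0.0518. Without the first 14-week tumour the estimate was 2.01, and without the second, which held the highest value, it was 1.11. The value per kilobase averaged 29070 CPM per kb in metamorphed cells, 91480 in tumours and 23340 in control discs, and the tumour average was 51140 without the second 14-week tumour.

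**Figure D2:**
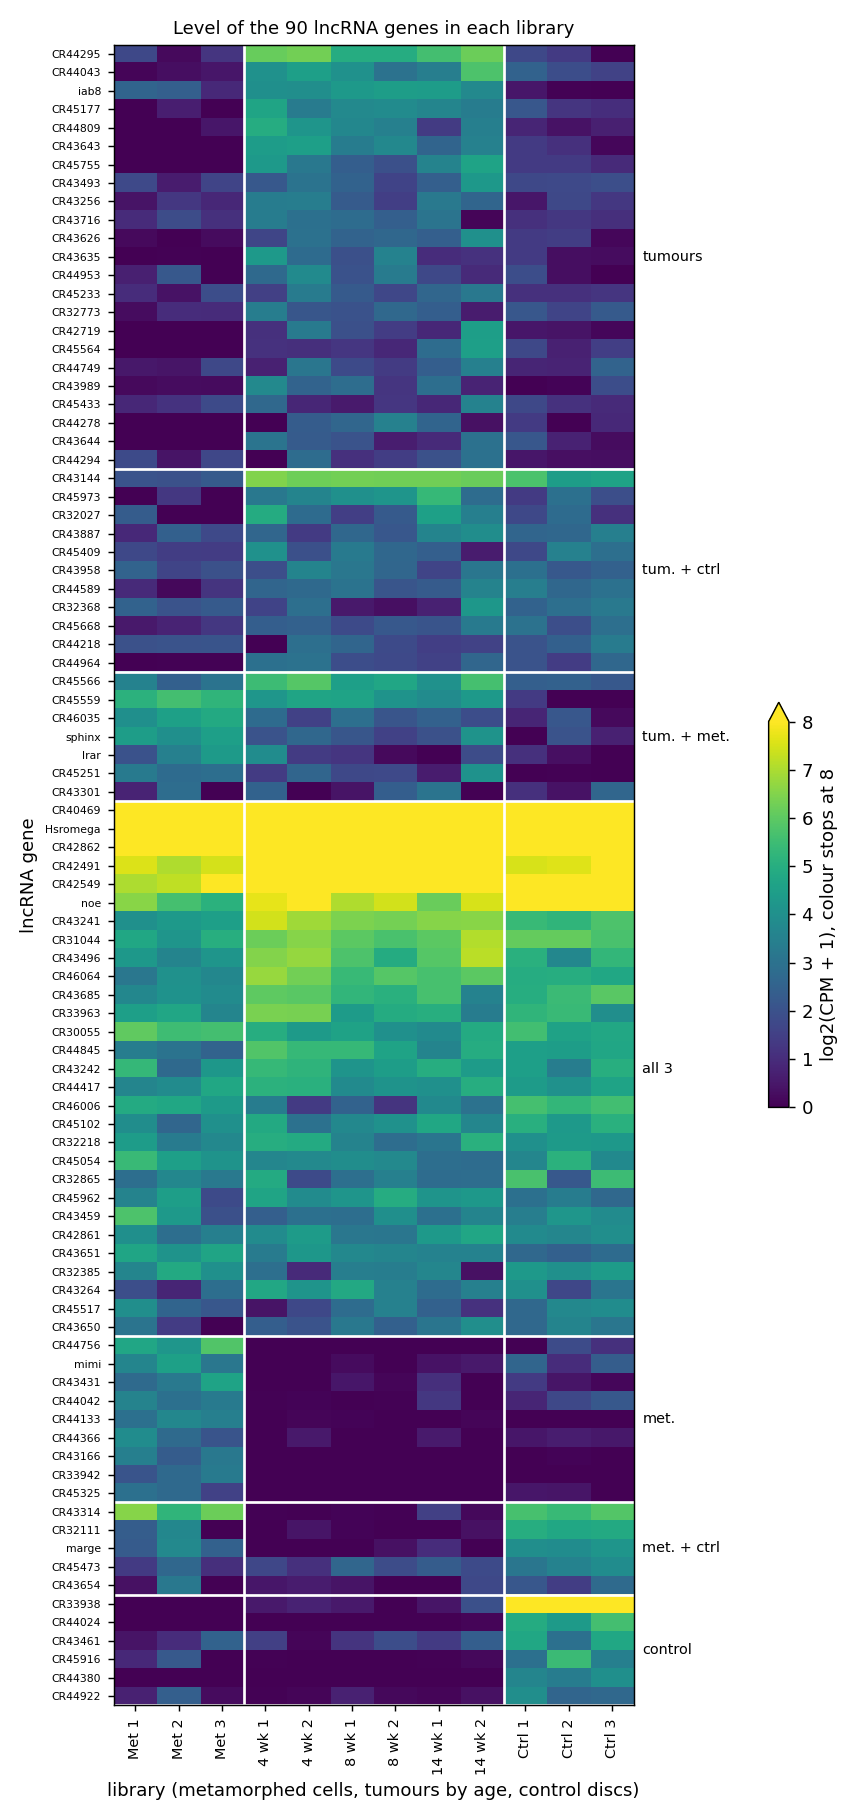
Level of each of the 90 members (down the page) in each of the 12 libraries (x axis), as log2(CPM + 1) with the colour scale ending at 8, and with members grouped by the conditions in which they passed the level. The 29 members past the level in every condition form the largest block, while the 9 members of metamorphed cells alone, the 23 of tumours alone and the 6 of control discs alone lie below the level in every library of the other conditions.

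Hsromega and CR42862 were the next highest, and both were lower in tumours than in control discs. Hsromega (chr3R:21296127-21317836) makes the heat shock omega RNA, which is rapidly induced by heat. It had 5064, 4187 and 3440 CPM in metamorphed cells, 790, 1535 and 2220 CPM in tumours (lowest, median, highest) and 5865, 6213 and 6660 CPM in control discs. All tumours lay below all other libraries. Tumours differed from control discs by -2.14 ± 0.37 (adjusted p = 0.00075), while the change of metamorphed cells against control discs, -0.58, did not pass the test (adjusted p = 0.311). CR42862 (chr3L:224106-230964), on the same strand as CG33229, had 1406, 1180 and 1032 CPM in metamorphed cells, 525, 876 and 1529 CPM in tumours and 1654, 2481 and 3543 CPM in control discs. Its change in tumours was -1.46 ± 0.35 (adjusted p = 0.00601), a call that was lost once each library's trend with transcript length was removed. Among the heat shock genes, 7 of 13 tested were higher and 0 lower when metamorphed cells were set against tumours (28.5% and 18% of all genes tested). Against control discs, 1 was lower in metamorphed cells (19% of all genes), and 7 were lower and 0 higher in tumours (21.6% and 14.4%).

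The other members over 100 CPM on average followed different courses. CR42491 (chrX:762615-763810) carries snoRNA:Psi18S-531, a guide RNA for pseudouridine in ribosomal RNA, and shares exons with the ribosomal protein gene RpL22. It had 191, 131 and 178 CPM in metamorphed cells, 544, 1084 and 1213 CPM in tumours and 183, 195 and 262 CPM in control discs. Every tumour was above every other library, with a change of 2.14 ± 0.23 against control discs (adjusted p = 1.71e-05), and metamorphed cells differed from tumours by -2.50 ± 0.23 (adjusted p = 1.25e-06). RpL22 itself changed by 0.88 in tumours against control discs (adjusted p = 0.076) and by 0.08 in metamorphed cells against tumours. CR42549 (chr3R:9548104-9551806), which overlaps mura on the same strand and shares 4.93% of its exonic bases, had 127, 151 and 286 CPM in metamorphed cells, 270, 400 and 616 CPM in tumours and 303, 626 and 356 CPM in control discs. Metamorphed cells had less of it, with changes of -1.20 ± 0.35 against control discs (adjusted p = 0.0149) and -1.27 ± 0.30 against tumours (adjusted p = 0.00373). The call against control discs was lost at an adjusted p under 0.01 and without the second control, the first metamorphed or the second metamorphed library.

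Of the remaining members over 100 CPM on average, CR33938 is described with the Hox complexes, and noe (chr3L:17400272-17401348) lies in an intron of blot on the same strand. It had 95.3, 49.4 and 33.3 CPM in metamorphed cells, 71.1, 178 and 421 CPM in tumours and 1698, 746 and 637 CPM in control discs. Neither mutant group overlapped with control discs. Metamorphed cells changed by -4.08 ± 0.49 (adjusted p = 2.06e-05), tumours by -2.43 ± 0.42 (adjusted p = 0.000732). The host gene blot, a transporter gene, changed by -2.96 in metamorphed cells and by -3.49 in tumours.

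In 10 members a microRNA gene is annotated on the same strand, so that their transcripts are candidate microRNA precursors. Metamorphed cells against tumours gave 3 higher and 3 lower, against 28.5% higher and 18% lower among all genes tested. Against control discs, 2 of the 10 were higher and 2 lower in metamorphed cells (all genes 21.6% and 19%), and 2 were higher and 4 lower in tumours (all genes 14.4% and 21.6%). The counts include iab8, CR45916 and CR43626, members through a single condition, and CR43314, which had passed in no tumour. Hsromega is one of them (mir-4951), and its values are given above.

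CR43314 and CR46006 had lower levels in tumours than in either other group. CR43314 (chr2L:11952200-11971094) holds mir-bft, named for the bereft locus that is needed for the bristles between the facets of the eye. It had 93.2, 36.8 and 72.3 CPM in metamorphed cells, 0, 0.0483 and 1.86 CPM in tumours (lowest, median, highest) and 50.2, 41.1 and 56.9 CPM in control discs. No tumour library came near the other groups. It passed the level in no tumour library, and its differences of 5.68 ± 0.45 in metamorphed cells against tumours and of -5.33 ± 0.45 in tumours against control discs describe its choice. Metamorphed cells against control discs, 0.36 ± 0.52, did not pass the test (adjusted p = 0.622). CR46006 holds mir-276a, a microRNA of the nervous system. It had 28.9, 26.0 and 19.7 CPM in metamorphed cells, 1.29, 5.89 and 12.8 CPM in tumours and 49.0, 38.3 and 46.5 CPM in control discs. Tumours differed from control discs by -2.97 ± 0.49 (adjusted p = 0.000493) and metamorphed cells from tumours by 2.14 ± 0.49 (adjusted p = 0.0027). The neuron and glia markers were lower in tumours than in control discs in 4 of 4 and in 2 of 2 genes (21.6% of all genes tested). Their part in the CR46006 result was not tested.

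CR43651 and CR31044 had the opposite order between metamorphed cells and control discs. CR43651 holds mir-14, which acts on cell death, fat metabolism and the ecdysone receptor. It had 25.2, 16.3 and 24.3 CPM in metamorphed cells, 9.0, 11.1 and 18.0 CPM in tumours and 5.49, 4.45 and 5.93 CPM in control discs. Metamorphed cells were higher than control discs by 1.85 ± 0.44 (adjusted p = 0.00439), while the tumour change of 1.02 ± 0.38 did not pass the test (adjusted p = 0.0501). CR31044 holds mir-279 and mir-996, which restrain neuronal fates. It had 26.3, 17 and 31.5 CPM in metamorphed cells, 51.0, 67.3 and 136 CPM in tumours and 68.6, 68.5 and 51.1 CPM in control discs. Metamorphed cells differed by -1.33 ± 0.36 from control discs (adjusted p = 0.00945), a call lost with the transcript length trend removed, and by -1.60 ± 0.31 from tumours (adjusted p = 0.000795).

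CR45916 and CR43626 were members through 1 condition each. CR45916 (chr3L:19562636-19566533) holds mir-9a, which limits sensory organ precursors. It had 0.874, 3.71 and 0 CPM in metamorphed cells, up to 0.135 CPM in tumours and 6.66, 42.8 and 9.85 CPM in control discs. CR43626, which holds mir-282, had 0.143, 0 and 0.181 CPM in metamorphed cells, 2.17, 5.06 and 15.2 CPM in tumours and 1.57, 1.73 and 0.0957 CPM in control discs. In both, the lowest library of the high condition stood above every other library. For CR45916 the nearest coding gene, the potassium channel gene Shal, differed from control discs by -1.68 in metamorphed cells and by -2.48 in tumours.

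The hosts of mir-34 with mir-277 and of mir-8 did not pass the test in any comparison. CR43459, host of mir-277 and mir-34, which are tied to ageing in flies, varied widely among metamorphed cells, with 53.5, 18.9 and 2.91 CPM, against 4.34, 6.82 and 14.9 CPM in tumours and 9.80, 17.6 and 13.5 CPM in control discs. CR43650, host of mir-8, the fly relative of the mir-200 family, had 7.50, 1.68 and 0 CPM in metamorphed cells, 3.2, 6.06 and 14.6 CPM in tumours and 5.49, 11.2 and 7.80 CPM in control discs. In both, the groups overlapped.

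**Figure D3:**
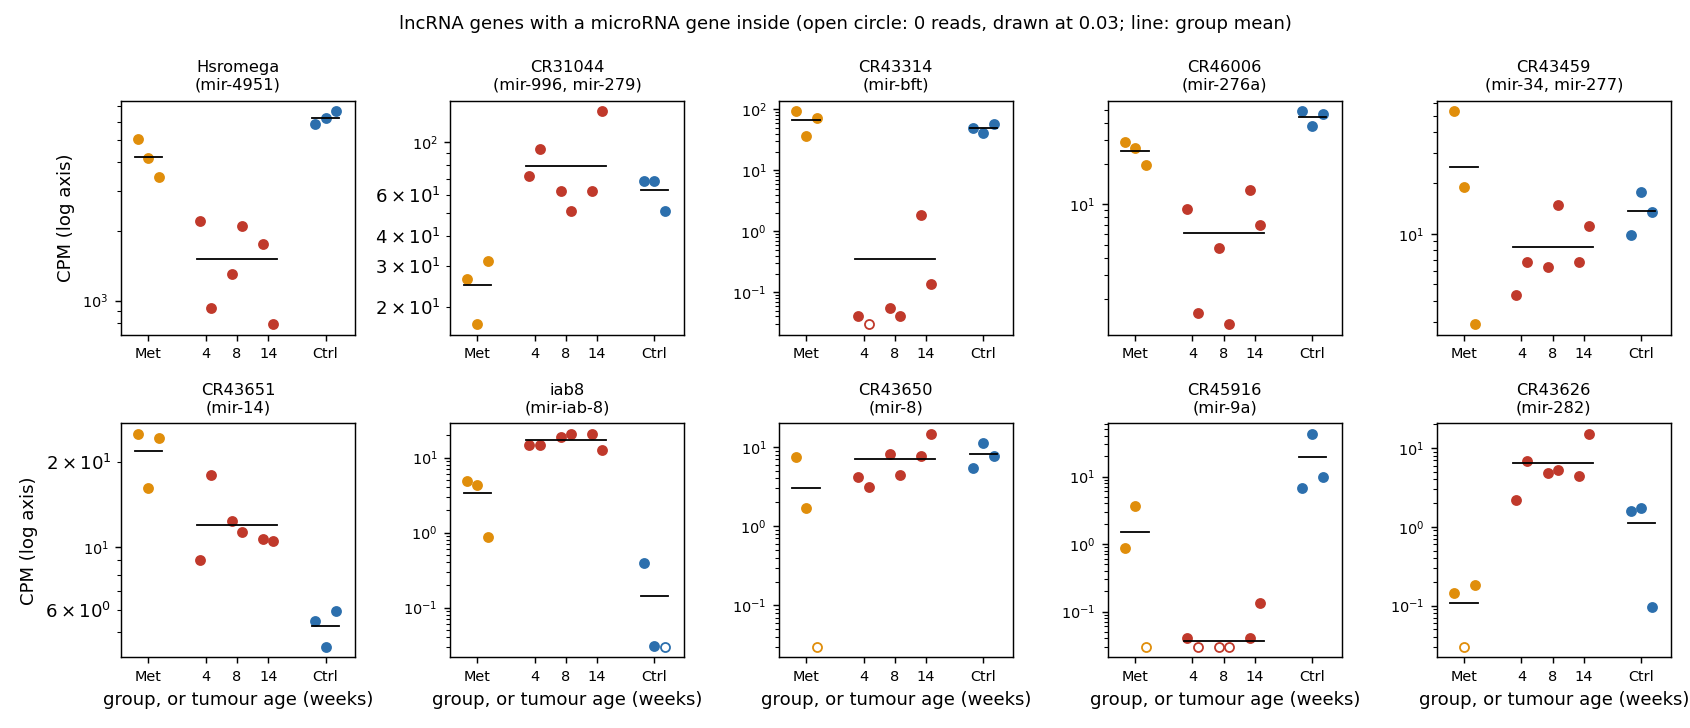
CPM on a log axis of each of the 10 microRNA host members, with a point for each library of metamorphed cells, tumours by age in weeks and control discs, a line at each group's mean, and open circles drawn at 0.03 for libraries with no read. For the mir-bft host CR43314 every metamorphed library is at 36.8 CPM or above, the tumours are at or below 1.86 CPM, and every control library is at 41.1 CPM or above.

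A set of 3 members lay in or near the Hox complexes, the classical targets of Polycomb silencing. The protein-coding Hox genes moved strongly: of 8, 7 were higher in metamorphed cells than in control discs (21.6% of all genes tested), and 6 were higher and 1 lower in tumours (14.4% and 21.6%). Abd-B, which specifies the posterior abdomen, had 226 to 372 CPM in metamorphed cells, 135 to 216 CPM in tumours and up to 6.66 CPM in control discs.

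The bithorax member iab8 (chr3R:16831116-16923231, minus strand) runs across the interval between Abd-B and abd-A and is the precursor of mir-iab-8, which represses Hox mRNAs. It passed the level through tumours alone. It had 4.93, 4.34 and 0.887 CPM in metamorphed cells, 12.7, 16.9 and 20.7 CPM in tumours (lowest, median, highest) and 0.392, 0.0309 and 0 CPM in control discs. The groups formed 3 steps with no overlap, with fitted differences from control discs of 1.79 ± 0.54 for metamorphed cells and 3.98 ± 0.46 for tumours. The neighbouring abd-A had 28.9 to 37.9 CPM in metamorphed cells, 15.0 to 74.2 CPM in tumours and 0.0478 to 1.18 CPM in control discs.

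The Antennapedia complex held 2 members, which took opposite courses. CR45559 (chr3R:6892918-6893462, minus strand) lies 2791 bases from Antp, the Hox gene of the thorax. It had 34.2, 47.5 and 36.6 CPM in metamorphed cells, 13.6, 18.1 and 24.4 CPM in tumours and 1.57, 0 and 0 CPM in control discs. All 9 mutant libraries were above all control libraries, with differences of 4.87 ± 0.49 for metamorphed cells and 3.85 ± 0.43 for tumours. It passed the level in no control library, so these differences describe its choice. Antp had a different pattern, with 0, 0 and 2.61 CPM in metamorphed cells, 45.0 to 206 CPM in tumours and 8.62, 0.865 and 0 CPM in control discs. Against control discs, the Antp change of -0.77 in metamorphed cells did not pass the test (adjusted p = 0.45), and that of 5.10 in tumours did (adjusted p = 7.7e-05).

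CR33938 (chr3R:6699560-6700164, minus strand) lies 1804 bases from Ccp84Ab, a cuticle protein gene within the Antennapedia complex. It was a member through control discs alone and was the highest member per kilobase after CR40469 there, at 1749 CPM per kb. It had no read in metamorphed cells, 0, 0.448 and 2.85 CPM in tumours and 706, 1081 and 863 CPM in control discs. Against the floor of 3 reads over the group, it was at least 55430-fold lower in metamorphed cells than in control discs. Ccp84Ab had 1.59 to 3.59 CPM in metamorphed cells, no read in tumours and 0.392 to 0.71 CPM in control discs.

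**Figure D4:**
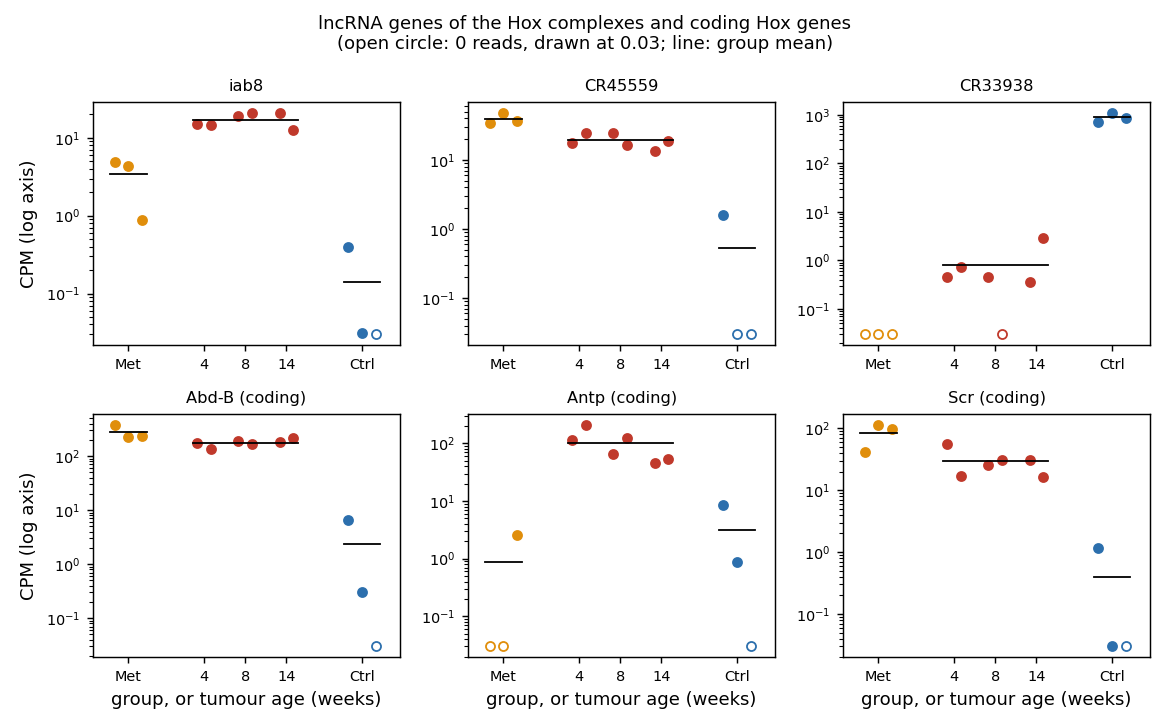
CPM on a log axis of iab8, CR45559 and CR33938 and of the coding Hox genes Abd-B, Antp and Scr, with a point for each library of metamorphed cells, tumours by age in weeks and control discs, a line at each group's mean, and open circles drawn at 0.03 for no read. CR45559 is at 13.6 CPM or above in every metamorphed and tumour library and at 1.57 CPM or below in control discs, and CR33938 has the reverse order.

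Of the 90 members, 22 were higher (24.4%) and 16 lower (17.8%) in tumours than in control discs, against a background of 14.4% higher and 21.6% lower among all 10177 genes tested (limma, adjusted p under 0.05). Another 52 did not pass. The counts include the members of a single condition, whose difference the choice had built in. The median change was 0.18 for the members and -0.19 for all genes tested. The split of the calls depended on scaling, with 40 higher and 13 lower under quantile normalization and 18 higher and 19 lower with CPM of total reads. Among the 29 members that passed the level in every condition, 4 were higher and 4 lower.

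Among the members that passed in tumours and metamorphed cells but in no control library, CR45559 and CR45566 had the largest differences between tumours and control discs. CR45566 (chr3R:27924879-27925368) lies opposite mino and shares 29.8% of its exonic bases. It had 10.7, 4.5 and 7.18 CPM in metamorphed cells, 15.6, 34.8 and 58.1 CPM in tumours and 4.31, 4.54 and 3.59 CPM in control discs. The lowest tumour was above every other library, with a difference of 2.70 ± 0.43 from control discs. The partner gene mino changed by 0.64.

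Among the members carried by tumours alone, CR44295 stood highest. It lies opposite oys, a lysophospholipid acyltransferase gene, at chr2R:10044035-10045196. It had 2.30, 0.154 and 1.35 CPM in metamorphed cells, 29.9, 58.5 and 78.3 CPM in tumours and 2.35, 1.54 and 0 CPM in control discs, a difference of 4.66 ± 0.49 between tumours and control discs. The lowest tumour was far above the highest of the other libraries. The gene oys itself changed by -0.06 in tumours.

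CR44809 and CR43643 were also high in tumours alone. CR44809 (chr2L:22169668-22170204), next to Clamp, the gene of a zinc finger protein of the dosage compensation system, had 0, 0 and 0.394 CPM in metamorphed cells, 1.62, 11.2 and 29.8 CPM in tumours and 0.784, 0.309 and 0.622 CPM in control discs. CR43643 (chr3R:26018027-26019309) lies 557 bases from E(spl)m2-BFM in the Enhancer of split complex, a group of Notch target genes. It had no read in metamorphed cells, 4.93, 11.3 and 21.9 CPM in tumours and 1.57, 1.17 and 0.0957 CPM in control discs. Metamorphed cells were at least 828-fold lower than tumours against the group floor.

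Genes of the same complex did not share one course. E(spl)m3-HLH, a Notch-induced repressor gene, had 1.70 to 6.50 CPM in metamorphed cells, 323 to 661 CPM in tumours and 108 to 123 CPM in control discs. Against control discs, E(spl)m2-BFM changed by -2.78 in metamorphed cells (adjusted p = 0.00041) and by -0.65 in tumours (adjusted p = 0.24). CR43644, also a member through tumours alone, had no read in metamorphed cells, 0.566, 3.55 and 7.48 CPM in tumours and 3.53, 0.71 and 0.191 CPM in control discs.

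Lower levels in tumours were led, after CR33938 and CR43314, by members with almost no reads in tumours. CR44024 (chr4:427331-431769), whose nearest coding gene is lgs, had no read in metamorphed cells, a single read in all 6 tumours and 29.0, 19.4 and 47.9 CPM in control discs, so that it was at least 2016-fold lower in metamorphed cells against the floor. CR32111 (chr3L:12627934-12648280), beside caup of the Iroquois complex, a group of patterning genes, had 4.18, 12.1 and 0.0164 CPM in metamorphed cells, up to 0.356 CPM in tumours and 30.6, 26.1 and 27.7 CPM in control discs. For caup the tumour change was -2.41 (adjusted p = 0.013). The gene marge (chr3L:14976626-14977631), which lies 586 bases from Ocho, a Bearded family gene of the Notch pathway, had 3.94, 12.5 and 4.60 CPM in metamorphed cells, up to 1.01 CPM in tumours and 14.5, 13.7 and 17.1 CPM in control discs. Ocho had no read in tumours or metamorphed cells and 11.4 to 30.6 CPM in control discs.

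Another pair of members was carried by control discs alone. CR44380 (chr2R:16814395-16815495) had no read in any tumour or metamorphed library and 11.4, 9.24 and 14.9 CPM in control discs, which makes it at least 743-fold lower in metamorphed cells and at least 510-fold lower in tumours against the floors. CR43461 (chrX:6732717-6735917), opposite CG3168, had 0.339, 1.01 and 4.66 CPM in metamorphed cells, 0.0890, 1.71 and 4.20 CPM in tumours and 26.3, 6.70 and 26.0 CPM in control discs. Both were thus separated from control discs in every library.

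**Figure D5:**
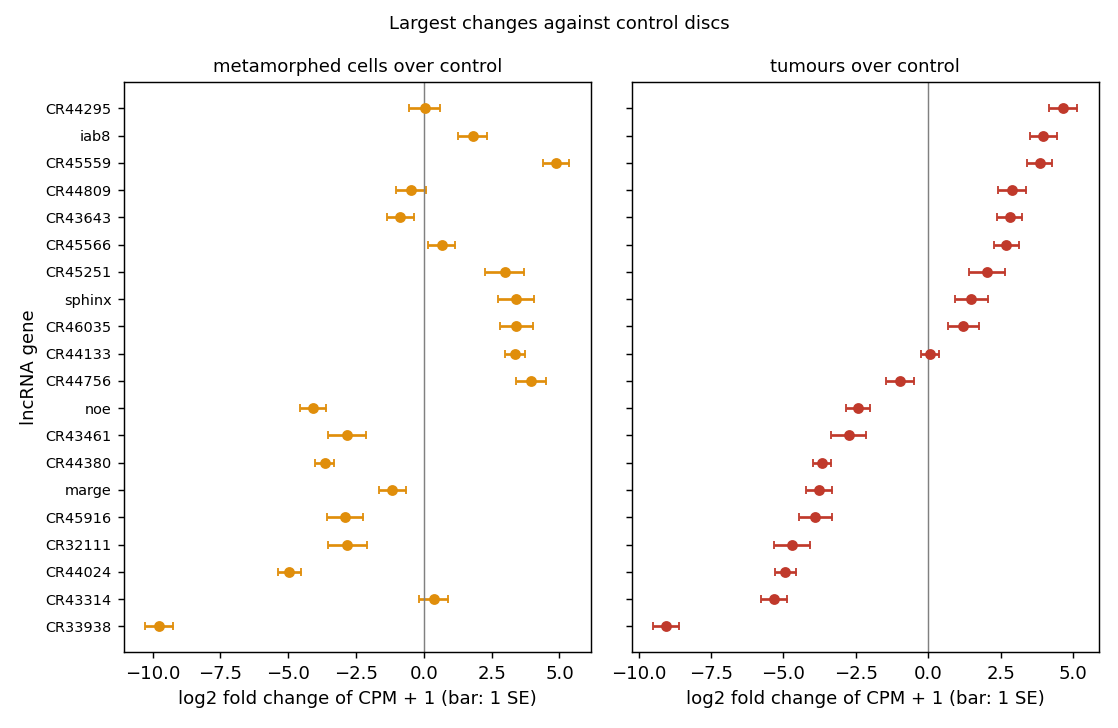
Fitted log2 fold change of CPM + 1 against control discs (x axis, bars of 1 SE) for the members with the largest increases and decreases, with metamorphed cells in the left panel and tumours in the right one. CR33938 has the lowest value in both panels, CR44295 lies at 0.02 in metamorphed cells and at 4.66 in tumours, and CR43314 lies at 0.36 in metamorphed cells and at -5.33 in tumours.

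In metamorphed cells, 16 members were higher and 21 lower than in control discs, against 21.6% higher and 19% lower among all genes tested, and 53 did not pass. Of the 16 higher, 9 were members through metamorphed cells alone and 5 through tumours and metamorphed cells. Of the 21 lower, 6 were members through control discs alone and 4 through tumours and control discs. The choice of members had built these differences in. The median change was -0.57 for the members and -0.03 for all genes, and it holds the same members. With CPM of total reads the split was 14 higher and 29 lower, and with limma-voom on the recovered reads it was 15 higher and 28 lower. Among the 29 members that passed the level in every condition, 1 was higher and 7 were lower. These comparisons carry the photoreceptor, fat body, haemocyte, muscle and yolk protein markers given above, whose part was not tested.

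CR46035 and sphinx had their highest mean levels in metamorphed cells and passed the level in no control library. CR46035 (chr3R:17703695-17705581), opposite osa, a gene of the Brahma chromatin remodelling complex, had 15.0, 22.6 and 28.1 CPM in metamorphed cells, 1.91, 3.96 and 6.51 CPM in tumours and 0.784, 3.52 and 0.143 CPM in control discs. Metamorphed cells differed from control discs by 3.41 ± 0.61 and from tumours by 2.19 ± 0.53. All metamorphed libraries passed the level while the tumour median lay below it, so both differences partly describe its choice. The RNA gene sphinx (chr4:975168-977261), known for its effect on male courtship, lies opposite fuss and shares 39.5% of its exonic bases. It had 21.0, 14.8 and 21.9 CPM in metamorphed cells, 1.90, 3.28 and 16.2 CPM in tumours and 0, 3.12 and 0.670 CPM in control discs. The difference from control discs was 3.39 ± 0.66, while that of fuss was -0.24.

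CR45251 was also a member through the mutant groups alone. It lies at chr3L:11349395-11349743, far from the nearest coding gene, CG6163. It had 8.89, 5.93 and 6.34 CPM in metamorphed cells, 0.525, 2.38 and 16.0 CPM in tumours and 0, 0.0309 and 0 CPM in control discs. Control discs held 1 library with any read. The difference from control discs was 2.98 ± 0.71 for metamorphed cells and 2.02 ± 0.62 for tumours.

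The members carried by metamorphed cells alone were led by CR44756, opposite Gp150, which encodes a transmembrane glycoprotein of the developing eye (chr2R:22318995-22320895). It had 25.8, 17.2 and 56.2 CPM in metamorphed cells, no read in tumours and 0, 2.53 and 1.15 CPM in control discs, and was at least 1424-fold higher in metamorphed cells than in tumours against the floor. Gp150 was also higher in metamorphed cells, by 2.13 against control discs (adjusted p = 0.00054) and by 2.60 against tumours. CR44133 (chr3R:15986181-15993665) shares most of its bases with srp, the GATA factor gene of fat body and blood cells, and had 6.67, 12 and 10.1 CPM in metamorphed cells, up to 0.0890 CPM in tumours and no read in control discs. Across the same libraries srp had 24.2 to 26.3 CPM in metamorphed cells, 1.06 to 5.19 CPM in tumours and 1.57 to 5.79 CPM in control discs, beside the higher fat body and haemocyte markers.

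A further pair, CR43166 and CR33942, was seen almost only in metamorphed cells. CR43166 had 9.85, 4.01 and 8.26 CPM in metamorphed cells, no read in tumours and 0, 0.0618 and 0 CPM in control discs. CR33942 had 3.21, 5.68 and 8.56 CPM in metamorphed cells and no read in tumours or control discs, which makes it at least 250-fold higher than in tumours and at least 108-fold higher than in control discs against the floors. The own-named mimi (chr3R:23983503-23985065), also carried by metamorphed cells alone, had 11.5, 22.4 and 8.03 CPM in metamorphed cells, up to 0.474 CPM in tumours and 5.10, 1.02 and 4.11 CPM in control discs.

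The remaining own-named members were Irar and the alphagamma-element CR32865. Irar (chr3R:21592350-21594852) lies opposite InR, the insulin receptor gene. It had 3.09, 10.1 and 19.4 CPM in metamorphed cells, 0, 1.47 and 13.9 CPM in tumours and 1.18, 0.247 and 0 CPM in control discs. No control library passed the level, and metamorphed cells differed from control discs by 2.80 ± 0.77. The alphagamma-element CR32865, a heat-inducible repeat transcript of the Hsp70 region, had 6.44, 12.1 and 8.37 CPM in metamorphed cells, 2.49, 6.37 and 28.6 CPM in tumours and 51.0, 3.58 and 43.4 CPM in control discs. With 1 control library among the tumour values, it did not pass the test for metamorphed cells (-1.18, adjusted p = 0.324) or for tumours (-1.33, adjusted p = 0.204). Without that library, the second control, both were called, at -2.31 for metamorphed cells and -2.46 for tumours.

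Metamorphed cells against tumours gave 20 higher and 35 lower members, with 35 not called, against a background of 28.5% higher and 18% lower. Of the 35 lower, 18 were members through tumours alone and 6 through tumours and control discs. Of the 20 higher, 9 were members through metamorphed cells alone and 3 through metamorphed cells and control discs. The choice of members had built these differences in. The median change, which holds the same members, was -0.68 for the members and 0.11 for all genes tested. Quantile normalization gave 15 higher and 47 lower. Among the 29 members that passed the level in every condition, 5 were higher and 10 lower. Of the 27 members opposite a coding gene, 7 were higher and 14 lower. Of the 14 that overlap a coding gene on the same strand, 1 was higher and 6 lower. Of the 49 without a coding overlap, 12 were higher and 15 lower. These counts also include members whose difference the choice had built in.

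CR43144 and CR43241 were lowest in metamorphed cells and highest in tumours. CR43144 (chr2L:21657625-21658249), next to Cul2, a cullin gene of protein degradation, had 3.14, 2.99 and 3.78 CPM in metamorphed cells, 70.4, 76.6 and 89.4 CPM in tumours and 52.5, 20.8 and 23.4 CPM in control discs. All metamorphed libraries lay below all others. It passed the level in no metamorphed library, and the difference of -4.19 ± 0.33 in metamorphed cells against tumours is a description. The change was 1.35 ± 0.33 for tumours against control discs (adjusted p = 0.007). Cul2 also had less RNA in metamorphed cells than in tumours, with a change of -1.34 (adjusted p = 0.024). CR43241 (chr2L:22131221-22132435), which shares 42.4% of its exonic bases with CG42748, had 15.1, 18.9 and 22.0 CPM in metamorphed cells, 79.7, 93.0 and 176 CPM in tumours and 40.8, 36.8 and 53.7 CPM in control discs. The change was -2.42 ± 0.26 for metamorphed cells against tumours (adjusted p = 4.81e-06) and 1.24 ± 0.26 for tumours against control discs (adjusted p = 0.00277), the call in tumours being lost with the transcript length trend removed.

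CR45973 and CR43496 followed the same order of tumours over metamorphed cells. CR45973 (chr3L:20404270-20407558) had 0, 1.44 and 0 CPM in metamorphed cells, 6.03, 13.2 and 39.7 CPM in tumours and 1.57, 6.73 and 2.82 CPM in control discs. Its difference was -3.43 ± 0.59 in metamorphed cells against tumours, and it passed the level in no metamorphed library. CR43496 (chrX:6758610-6759491), opposite sov, had 18.3, 11.1 and 16.9 CPM in metamorphed cells, 29.4, 74.0 and 144 CPM in tumours and 32.9, 11.9 and 38.0 CPM in control discs, a change of -2.16 ± 0.42 in metamorphed cells against tumours (adjusted p = 0.000774).

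At 2 loci, neighbouring members went different ways. CR44043 overlaps l(2)41Ab on the opposite strand in 2R heterochromatin, and CR44042 lies 225 bases from that gene. CR44043 (chr2R:1368921-1371468) had 0.0714, 0.224 and 0.411 CPM in metamorphed cells, 7.12, 15.7 and 53.0 CPM in tumours and 4.70, 2.72 and 2.01 CPM in control discs. CR44042 (chr2R:1348167-1349167) had 10.9, 6.78 and 8.56 CPM in metamorphed cells, up to 1.45 CPM in tumours and 0.784, 2.32 and 3.59 CPM in control discs. Next to CR32111, which was high in control discs, CR43431 (chr3L:12648907-12653090) was high in metamorphed cells instead, with 5.82, 8.41 and 24.1 CPM in metamorphed cells, up to 1.09 CPM in tumours and 1.57, 0.371 and 0.0957 CPM in control discs. Each of these 4 members passed the level mainly or only through 1 condition, so these patterns describe the choice of members.

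CR45177 (chr3L:27091705-27092199) was a further member of tumours alone, with 0, 0.603 and 0 CPM in metamorphed cells, 9.04, 12.2 and 24.3 CPM in tumours and 3.53, 1.33 and 1.05 CPM in control discs. Genes of the RNA exosome, the nuclease that degrades many non-coding transcripts, differed as well: of 11, 8 were lower in metamorphed cells than in tumours (18% of all genes tested), 1 was lower in metamorphed cells against control discs (19%) and 3 were higher in tumours against control discs (14.4%). Their part in the member levels was not tested.

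Between 14-week and 4-week tumours no member passed the test, against 0.0983% of all genes tested in either direction. At an unadjusted p under 0.05 there were 11 members, and limma-voom also called 0. The largest estimated increases were those of CR45564, CR43887 and CR43650. CR45564 had 1.23 and 1.11 CPM in the 4-week tumours, 1.39 and 0.849 CPM in the 8-week tumours and 6.06 and 21.7 CPM in the 14-week tumours, an estimate of 2.54 ± 0.60. The estimate for CR43887 was 1.77 ± 0.69 and that for CR43650 was 1.32 ± 0.85.

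The largest estimated decreases with age were those of CR43635, CR33963 and CR44809. CR43635 had 18.6 and 5.97 CPM in the 4-week tumours, 2.90 and 10.8 CPM in the 8-week tumours and 1.01 and 1.22 CPM in the 14-week tumours, an estimate of -2.47 ± 0.67. CR33963, which overlaps Tis11, had 83.4 and 81.3 CPM in the 4-week tumours, 20.1 and 29.0 CPM in the 8-week tumours and 31.1 and 9.21 CPM in the 14-week tumours (-2.20 ± 0.64, adjusted p = 0.276). In each the 14-week libraries lay below the 4-week libraries, and with 2 tumours at each age the estimates did not pass the test. The median SD of log2(CPM + 1) over members was 0.491 in metamorphed cells (n = 3), 0.718 in tumours (n = 6) and 0.498 in control discs (n = 3). The tumour value pools the 3 ages, so it is not a spread among samples of a single condition.

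The level that chose the members cut through a continuous range. Just inside were CR44278, CR32773 and CR44922, whose second highest deposited log2 values were 2.42, 2.48 and 2.48. Just outside were CR43337, CR45993 and CR45187 at 2.36, 2.34 and 2.31. Of the genes set aside by name, let7C, host of let-7, had 1.97 to 4.11 CPM in metamorphed cells, up to 0.607 CPM in tumours and 0.556 to 6.66 CPM in control discs and would not have passed the level.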

How the data were processed

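RNA was sequenced from 12 samples: 6 ph505 tumours (2 each at 4, 8 and 14 weeks), 3 samples of metamorphed ph505 cells and 3 of control discs, grouped by the submitters' labels. RNA of each kind was collected independently, by the study's methods. The submitters' processing notes name TopHat2 2.0.12, Bowtie2 2.2.3, dm6, R 3.3.1 and edgeR 3.16.5. The authors deposited one table of log2 CPM values with a prior of 2 reads on average. The read counter, the annotation used for counting and its strand setting are not given in the sources used here.

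Subtracting the prior gave whole reads for 100% of the values (tolerance 0.1 reads) and linear CPM, which replaced the CPM values expected at the outset. Reads on genes differed 39.3-fold between libraries, and normalization factors ran from 0.611 to 1.239. Detection floors cover counting error only. Over a group, 3 reads stood at 0.0232 CPM in tumours, 0.0159 CPM in metamorphed cells and 0.0537 CPM in control discs.

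The test took the 10177 genes that reached 1 CPM in 2 or more libraries. Values of log2(CPM + 1) were fitted by limma (version 3.58.1, under R 4.3.3) in one 5-group model with a mean-variance trend. The pseudocount of 1 CPM understates the change of low genes. Benjamini-Hochberg adjustment ran across every gene tested, 0.05 was the threshold, and the tumour value is the mean of the 3 ages. The fit was also run on simulated reads with the same fixed spread for every gene. That setting is simpler than the spread of these libraries, so it checks the code and not the error rate here. Python 3.11.15, pandas 2.3.3, NumPy 2.4.6, SciPy 1.17.1 and matplotlib 3.10.9 served for tables and figures.

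Members, lists and tests were chosen with earlier results of these data known. Genes named are the 6 largest increases and the 6 largest decreases of each comparison among members called with no overlap between groups, the 3 largest estimates in each direction with tumour age, members with a name of their own, in or within 10 kb of the Hox complexes or with a microRNA or small nucleolar RNA gene inside, the 10 highest by mean CPM, members next to the level, and the coding gene that overlaps or is nearest. CR43644, CR43166 and CR33942 were added after their values were seen. Alternatives covered the pseudocount, filter, scaling, model, trend, length, threshold, replicate block and each sample left out. No sequences were printed, since none was at hand.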

Additional observations from a re-analysis of the deposited data

Results flagged for a closer look

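In 44 named members, the highest and the lowest of the 6 tumours were set against the others with Dixon's criterion, which chance exceeds in about 1 in 20 groups. It picked out 7 members.

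In the second 14-week tumour, CR40469 stood at 62735 CPM (926132 reads), against 7390 to 15063 CPM in the other tumours. The same library had 0.0677 CPM of CR44024, a single read, where the other tumours had none, and 0.135 CPM of CR45916, 2 reads, where the others reached 0.0409 CPM.

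The first 14-week tumour was the highest in 3 members that were otherwise nearly silent in tumours. It had 1.86 CPM of CR43314 (46 reads) against 0.135 CPM or less in the others, 1.01 CPM of marge (25 reads) against 0.283 CPM or less, and 1.45 CPM of CR44042 (36 reads) against 0.0445 CPM or less. CR43144 stood at 89.4 CPM in the first 4-week tumour, against 70.4 to 76.9 CPM in the other tumours, a narrow range.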

How the results depend on the processing

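Of 84 comparisons of named members, 57 passed the test, and 49 of these did so in every one of 26 alternatives, with no change of sign in any of the 57. The 8 others lost the call in at least 1 alternative, among them lncRNA:Irar in metamorphed cells against tumours, lost in 14 of the 26, lncRNA:CR31044 in metamorphed cells against control discs, and lncRNA:CR42862, lncRNA:CR43241 and lncRNA:CR43496 in tumours with the transcript length trend removed. Of 27 comparisons that did not pass, 10 did in at least 1 alternative. The members with the largest changes were named because they had passed the test with no overlap between groups. Some of them also entered through the condition in which they were high. The 57 and the 49 are therefore partly set by the choice of what was named. lncRNA:CR40469 in tumours against control discs passed with quantile normalization (1.25). Its estimate was 2.01 without the first 14-week tumour and 1.11 without the second. With each sample left out in turn, 30 (without the third control) to 43 members were called in tumours against control discs, 30 (without the third control) to 40 in metamorphed cells against control discs and 45 (without the first metamorphed library) to 55 against tumours, where all libraries gave 38, 37 and 55. An adjusted p under 0.01 left 24 in metamorphed cells against control discs, 27 in tumours and 41 in metamorphed cells against tumours. Between the tumour ages the count was 0 in every alternative. With CPM of total reads the summed level of the members in control discs was 21103 CPM in place of 17246 CPM, and the median of all genes moved to -0.46 for metamorphed cells and -0.43 for tumours against control discs. The cause of these shifts was not tested.

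Changes of sign were limited to estimates that did not pass the test. With CPM of total reads lncRNA:CR31044 in tumours was at -0.048, lncRNA:CR40469 in metamorphed cells against control discs at -0.19 and lncRNA:CR42549 in tumours at -0.26 (-0.33 with quantile normalization, -0.15 to 0.38 with a sample left out). lncRNA:CR43459 in tumours was at 0.072 with quantile normalization and 0.19 with the length trend removed, and in metamorphed cells against control discs at -0.29 with CPM of total reads, -0.086 with limma-voom and -0.70 to 1.21 with a sample left out. lncRNA:alphagamma-element:CR32865 in metamorphed cells against tumours was at -0.022 with CPM of total reads, -0.66 with quantile normalization, -0.087 with the replicate block and -0.36 to 0.67 with a sample left out.

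With the replicate number as a block, 53 members were called in metamorphed cells against tumours, 35 in metamorphed cells and 34 in tumours when set against control discs and 0 between the ages. Deviations from the group mean of same-numbered samples correlated at a mean of -0.017 across genes (-0.196 to 0.272). Those of other samples correlated at 0.01 (-0.272 to 0.196). In a tumour group of 2 samples the deviations mirror each other, so these means cannot decide whether the numbers pair the samples.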
